A study of Mus musculus with 16 samples.

Results

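The growth hormone axis was represented by 7 genes: Ghrh, Sst, Ghr, Sstr1, Sstr2, Sstr3 and Sstr4. They were taken as every probe annotated to 1 of these symbols, which gave 8 probes for 7 of the 16593 genes named on the array. Of these, 3 genes with 4 probes were detected well enough to be tested, among 10244 genes with 14870 tested probes. Hypothalamic RNA came from 16 female F1 C57BL/6J mice aged 21 days, 8 LUN and 8 CON, and each mouse had its own Illumina MouseRef-8 v2 array. LUN mice were suckled by mothers given 50% of the food that control mothers consumed, from birth to weaning, and CON mice by mothers fed ad libitum, with 8 pups per litter in both groups. The whole hypothalamus was profiled, so a value is an average over all nuclei and cell types of the dissected block.

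Growth hormone secretion from the pituitary is driven by growth hormone-releasing hormone (GHRH), made by neurons of the arcuate nucleus, and held back by somatostatin, made by neurons of the periventricular nucleus. Both peptides are released into the portal blood of the median eminence. Growth hormone acts back on the hypothalamus through its receptor, which signals through JAK2 and STAT5, and somatostatin acts through a family of inhibitory G protein-coupled receptors. The arrays measure transcripts of these genes in the hypothalamus, not hormone in blood.

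The start regions of the genes for both hypophysiotropic peptides are shown here, since the 2 genes are set against each other in what follows. Of the 7 members, 6 had start regions in the RefSeq table for build GRCm38.p6, 9 windows in all, each of 250 bases before and 50 bases after an annotated start. Capitals mark motifs found in the printed strand or its complement: TGACGTCA, the cAMP response element, in Sst, and TATAAA, the TATA box, in Ghrh. The Sst window lies at chr16:23890795-23891094 and the Ghrh window at chr2:157337377-157337676, both on the minus strand.
Ghrh: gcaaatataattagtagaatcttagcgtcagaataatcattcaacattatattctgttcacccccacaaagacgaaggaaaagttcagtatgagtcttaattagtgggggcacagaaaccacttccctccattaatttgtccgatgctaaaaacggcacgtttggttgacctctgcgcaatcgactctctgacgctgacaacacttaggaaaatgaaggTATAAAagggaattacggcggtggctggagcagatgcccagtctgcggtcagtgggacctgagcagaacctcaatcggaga
Sst: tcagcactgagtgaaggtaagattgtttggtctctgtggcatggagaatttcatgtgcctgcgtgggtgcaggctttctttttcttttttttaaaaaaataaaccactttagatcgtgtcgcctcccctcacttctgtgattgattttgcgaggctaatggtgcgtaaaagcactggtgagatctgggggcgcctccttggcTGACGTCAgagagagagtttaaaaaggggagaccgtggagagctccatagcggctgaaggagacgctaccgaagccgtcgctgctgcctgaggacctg
In Sst the cAMP response element began at position -48 relative to the start, and in this Ghrh window the TATA box began at position -31. A further Ghrh start, at chr2:157346606-157346905, held neither motif. Over all 32851 windows, TGACGTCA was found in 588 (1.79%) and TATAAA in 4473 (13.6%). Among the other members, Sstr2 held TGACGTCA from position -58 and 1 Ghr window held TATAAA from position -188. The letters TTCNNNGAA, the element bound by STAT5, were found in 2726 windows (8.3%) and in no window of a member. A match describes the sequence only, and no binding was measured.

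Several features of the arrays bear on the values below. The arrays lay on 2 BeadChips, each with 4 LUN and 4 CON arrays (replicates 1 to 4 on BeadChip 1), and on both LUN arrays held the last positions and CON arrays the first, so position and group cannot be told apart. The mean signal of an array was 351 to 414 in LUN and 394 to 516 in CON before normalization, and 14540 to 15051 probes were detected in LUN and 14560 to 15384 in CON. Of 11 markers of hypothalamic nuclei other than the arcuate that had a probe, 8 were tested and 7 of these were detected on all 16 arrays, while Crh was detected on 3 LUN and 5 CON arrays, Nr5a1 on 1 LUN array and Sim1 and Otp on none. All 12 markers of the thalamus, the region above the hypothalamus, were also tested. Gbx2, Shox2, Tcf7l2, Prkcd, Tnnt1, Ramp3, Lhx9, Rora and Slc17a7 rose in LUN, and Calb2 did not pass (0.21, adjusted p = 0.0867 from limma). Of the 12, Lef1 was detected on 8 LUN and 3 CON arrays and Synpo2 on 8 LUN and 2 CON arrays. Both were thus tested only through the group where they were high, and nothing is read from their differences. They stayed in the thalamic score, and no score without them is given here. This score, the mean of the 12 markers relative to their mean over all arrays, was 0.40 to 0.83 in LUN and -1.48 to 0.77 in CON (log2). Arrays CON 4 and CON 8 stood apart from the other CON arrays with scores of 0.77 and 0.37, where the others reached at most -0.32. In all, 15% of tested probes passed the test at an adjusted p under 0.05, 1202 of them lower in LUN (8.08%) and 1029 higher, and 1.34% passed with a change of at least 1.5-fold.

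Ghrh was lower in LUN, Sst was not distinguishable between the groups, and of the 2 probes of Ghr only the brighter passed the test. Of the 4 tested probes of members, 2 passed the test and both were lower in LUN, beside 15% of all tested probes passing in either direction and 8.08% passing as lower in LUN. None of the 4 reached a change of 1.5-fold, beside 1.34% of all tested probes.

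**Figure D1:**
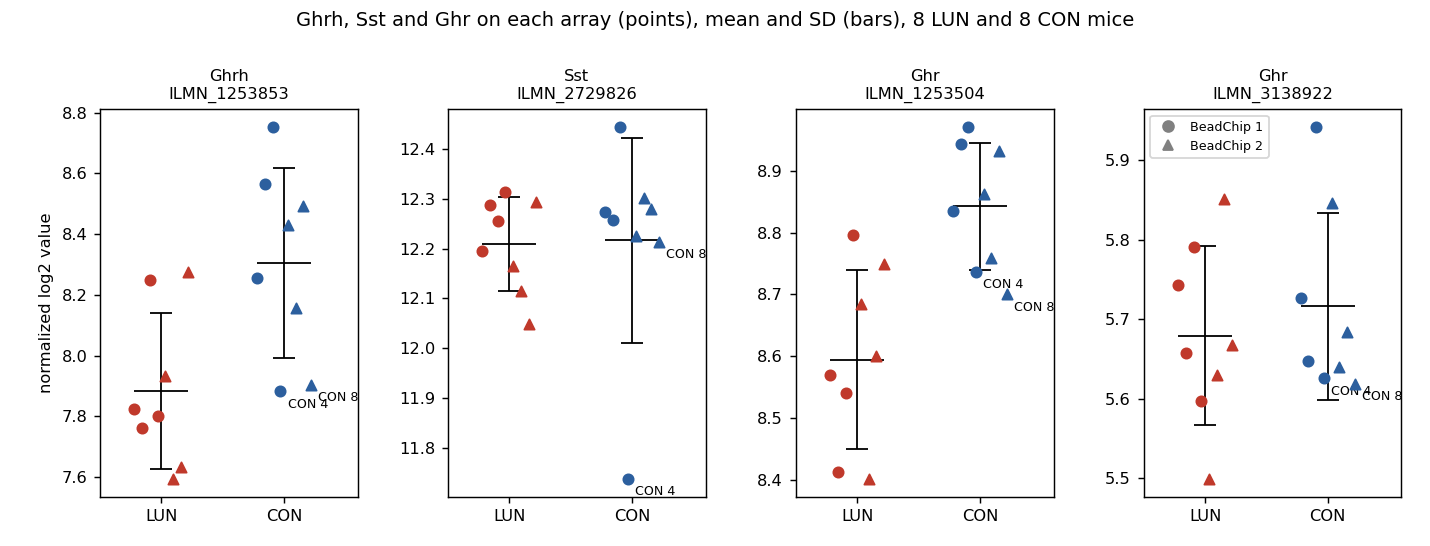
Normalized log2 value of the Ghrh probe, the Sst probe and both Ghr probes on each array, LUN left of CON, with circles for BeadChip 1 and triangles for BeadChip 2; bars are the mean and SD of 8 mice, and each panel has its own axis, which does not start at 0. Ghrh averaged 7.88 in LUN and 8.31 in CON, Sst differed by -0.01, and CON 4 lay at the bottom of the Sst panel with 11.74.

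Ghrh, which encodes the releasing hormone, had normalized log2 values of 7.82, 7.76, 8.25, 7.80, 7.93, 7.59, 7.63 and 8.28 in LUN 1 to LUN 8. In CON 1 to CON 8 it had 8.26, 8.57, 8.75, 7.88, 8.43, 8.16, 8.49 and 7.90. All 8 LUN mice lay below the CON median of 8.34 and 5 of them below the lowest CON mouse, yet the groups overlapped, because LUN 3 and LUN 8 were high for their group and CON 4 and CON 8 were low for theirs. The probe was detected on all 16 arrays, with raw signals of 210 to 322 in LUN and 296 to 615 in CON. The mean was 7.88 ± 0.26 in LUN and 8.31 ± 0.31 in CON (SD, n = 8 each), a difference of -0.42 (standard error 0.13, 95% interval -0.70 to -0.15, adjusted p = 0.0367 from limma). On the linear scale the LUN level was 0.747 of the CON level (95% interval 0.617 to 0.903). A two-sided exact permutation test on this probe alone gave p = 0.0132. The difference was -0.46 on BeadChip 1 and -0.39 on BeadChip 2.

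The call for Ghrh was close to the threshold. With 1 array left out at a time the difference stayed between -0.48 and -0.36, but the adjusted p from limma was 0.0149 to 0.0725 and passed in 6 of 16 cases. It was lost without LUN 1 (0.0619), LUN 2 (0.0649), LUN 4 (0.0579), LUN 6 (0.0725) or LUN 7 (0.0713), and without CON 1 (0.0501), CON 2 (0.0693), CON 3 (0.0712), CON 5 (0.0654) or CON 7 (0.0696). Without both CON 4 and CON 8 the difference was -0.56. These were the CON arrays with the lowest Ghrh, so leaving them out could only enlarge the difference, and nothing is read from it. In whole tissue, fewer cells of a type and less RNA per cell cannot be told apart, for Ghrh and for every gene below.

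Sst encodes somatostatin, the inhibitor of growth hormone release, which many neurons of the hypothalamus and forebrain also make. Its normalized log2 values were 12.20, 12.29, 12.26, 12.31, 12.16, 12.12, 12.05 and 12.29 in LUN 1 to LUN 8. They were 12.27, 12.26, 12.44, 11.74, 12.23, 12.30, 12.28 and 12.21 in CON 1 to CON 8. The groups lay over each other, and 1 array, CON 4, was far below all the others. The mean was 12.21 ± 0.10 in LUN and 12.22 ± 0.21 in CON (SD, n = 8 each), a difference of -0.01 (standard error 0.08, adjusted p = 0.966 from limma). The 95% interval of -0.17 to 0.16 corresponds to a LUN level between 0.888 and 1.11 of the CON level. The difference was 0.085 on BeadChip 1 and -0.10 on BeadChip 2, -0.076 without CON 4 and 0.025 without CON 3. With median scaling in place of quantile normalization it was -0.17 (95% interval -0.36 to 0.02, adjusted p = 0.175 from limma). Of 6 tested markers of the somatostatin interneurons of the forebrain, 1 rose, Nxph1 (0.33, adjusted p = 0.0108 from limma), beside 1029 of 14870 tested probes. The others did not pass, with Chodl at -0.31, Npas1 at -0.27, Elfn1 at -0.24, Satb1 at 0.12 and Reln at 0.09. Of the same marker list, Lhx6 and Calb1 were detected on no array and Nos1 on 3 LUN and 1 CON arrays, and these were not tested. The score of the 6 markers was -0.11 to 0.03 in LUN and -0.08 to 0.12 in CON.

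The releasing and the inhibiting peptide were also compared within each array. This contrast, chosen after their values had been seen, does not compare the amounts of the 2 transcripts, only how the difference between their probes shifted. Ghrh minus Sst was -4.33 ± 0.22 in LUN and -3.91 ± 0.23 in CON (SD, n = 8 each), a shift of -0.41 (two-sided exact permutation test, p = 0.00389, adjusted over 2 such contrasts p = 0.00777). The adjustment does not correct for choosing the contrast after the values had been seen. Since Sst hardly differed, the shift largely repeats the Ghrh difference and adds no separate support to it. Without CON 4 and CON 8, the CON arrays with the lowest Ghrh, the shift was -0.47.

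Ghr, which encodes the growth hormone receptor, had 2 probes, assigned to different RefSeq transcripts. Mice make a soluble growth hormone-binding protein from the same gene by alternative splicing, but the sequences of the probes were not used here, so which form each of them reads is not settled. The brighter probe, ILMN_1253504, had normalized log2 values of 8.57, 8.41, 8.54, 8.80, 8.69, 8.40, 8.60 and 8.75 in LUN 1 to LUN 8. In CON 1 to CON 8 it had 8.83, 8.94, 8.97, 8.74, 8.86, 8.76, 8.93 and 8.70. All 8 LUN mice lay below the CON median and 6 below the lowest CON mouse, and LUN 4 and LUN 8 reached into the CON range. The mean was 8.59 ± 0.14 in LUN and 8.84 ± 0.10 in CON (SD, n = 8 each), a difference of -0.25 (standard error 0.06, 95% interval -0.38 to -0.11, adjusted p = 0.0143 from limma). The LUN level was 0.842 of the CON level (95% interval 0.768 to 0.924), and the two-sided exact permutation test gave p = 0.00202. It was -0.29 on BeadChip 1 and -0.20 on BeadChip 2, and the probe passed with each array left out in turn (-0.28 to -0.22, adjusted p 0.008 to 0.0303).

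The dimmer Ghr probe, ILMN_3138922, had normalized log2 values of 5.74, 5.66, 5.79, 5.60, 5.50, 5.63, 5.85 and 5.67 in LUN 1 to LUN 8. In CON 1 to CON 8 it had 5.73, 5.65, 5.94, 5.63, 5.85, 5.64, 5.68 and 5.62. LUN and CON mice were intermingled. The difference was -0.04 (95% interval -0.16 to 0.09, adjusted p = 0.729 from limma). The probe was detected on all 16 arrays, with raw signals of 82.2 to 97.9 in LUN and 91.5 to 124 in CON. These signals were near background, where the offset added before the log2 step shrinks differences, so the 2 probes are not measured equally well. Within an array, the brighter minus the dimmer probe was 2.92 ± 0.20 in LUN and 3.13 ± 0.10 in CON (SD, n = 8 each), a shift of -0.21 (two-sided exact permutation test, p = 0.021, also adjusted over the 2 contrasts chosen after values had been seen). The adjustment does not correct for that choice. The part of the low level of the dimmer probe in this shift was not tested.

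The 4 somatostatin receptors among the members, Sstr1 to Sstr4, each had 1 probe and none was detected on any of 16 arrays, beside 30.9% of all probes on the array detected on none. The lowest detection p-value was 0.0545 for Sstr1, 0.123 for Sstr2, 0.428 for Sstr3 and 0.278 for Sstr4. Their normalized log2 values were 4.36 to 4.84 in LUN and 4.33 to 4.59 in CON for Sstr1, and 4.34 to 4.63 in LUN and 4.38 to 4.68 in CON for Sstr2. For Sstr3 they were 4.25 to 4.43 in LUN and 4.24 to 4.36 in CON, and for Sstr4 4.26 to 4.52 in LUN and 4.24 to 4.34 in CON. These receptors were therefore not measurable with these probes, which does not show that they were absent, and no fold is given. The remaining receptor of the family, Sstr5, was detected on 7 LUN and 6 CON arrays and differed by -0.03 (adjusted p = 0.884 from limma).

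**Figure D2:**
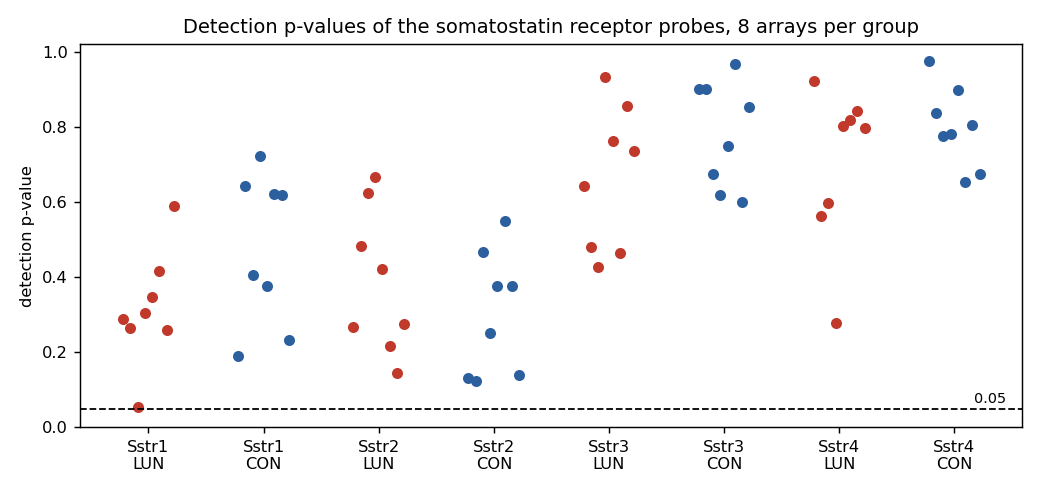
Detection p-value of the Sstr1, Sstr2, Sstr3 and Sstr4 probes on each of 8 LUN and 8 CON arrays, with the detection threshold of 0.05 dashed. No point lies under the threshold, and the lowest, at 0.0545, is Sstr1 in LUN 3.

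Beyond the members, 67 genes of the axis were examined in 7 lists. Of these, 60 had a probe and 45 were tested, and 0 rose and 4 fell, which is 8.89% beside 15% over all tested probes. The median difference of the 45 genes was -0.03, beside -0.01 over all tested probes. Those that fell were Gal, Dpp4, Pcsk1n and Adam17, each with 1 probe.

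Among the other ligands and receptors, none of 5 tested genes passed, beside 15% of all tested probes. Ghsr, the ghrelin receptor, which GHRH neurons carry, differed by -0.15 (adjusted p = 0.186 from limma). Igf1, the growth factor through which growth hormone acts on many tissues, differed by 0.14 and its receptor Igf1r by 0.22 (adjusted p = 0.279 and 0.0842 from limma). Cort, which encodes cortistatin, a ligand of the somatostatin receptors, differed by 0.36, with an SD of 0.70 in LUN and 0.36 in CON (adjusted p = 0.361). The receptor for GHRH, Ghrhr, which is known from the pituitary, was detected on no array.

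Of 17 tested genes of growth hormone receptor signalling, 1 fell and none rose. Over all tested probes, 8.08% fell and 15% passed in either direction. Adam17, the protease that sheds the extracellular part of the growth hormone receptor, differed by -0.22 with a standard error of 0.07 and fell (adjusted p = 0.043 from limma). It had 7.64 to 8.16 in LUN and 7.92 to 8.25 in CON, so the groups overlapped, and with 1 array left out it passed in 5 of 16 cases (adjusted p 0.0187 to 0.0805), those without LUN 4, LUN 6, LUN 8, CON 2 or CON 3, and was lost in the others (-0.23 to -0.18). Stat3, a transcription factor downstream of cytokine receptors, differed by -0.22 and missed the threshold (adjusted p = 0.0505). Ptpn11, Shc1 and Grb10, adaptors and a phosphatase of receptor signalling, differed by 0.04, 0.06 and -0.10 (adjusted p = 0.531, 0.556 and 0.23). None of the 6 tested effectors of somatostatin receptors passed. Their G protein subunits Gnai2 and Gnao1 differed by -0.18 and -0.12, and the arrestins Arrb1 and Arrb2 by -0.05 and 0.05.

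Of 8 tested genes of prohormone processing and dense-core vesicles, 2 fell, beside 8.08% of all tested probes. Pcsk1n, which encodes proSAAS, an inhibitor of the convertase that cleaves prohormones, had 10.46 ± 0.11 in LUN and 10.71 ± 0.12 in CON (SD, n = 8 each) and fell by 0.25 (adjusted p = 0.0109 from limma). Dpp4, which encodes a peptidase, had 5.14 ± 0.22 in LUN and 5.57 ± 0.21 in CON (SD, n = 8 each) and fell by 0.42 (adjusted p = 0.00862), with detection on 7 LUN and 8 CON arrays. The size of this near-background change depended on the processing, with -0.21 from the signals as deposited, -0.23 with an offset of 50 and -0.75 in the deposited log2 values (adjusted p 0.000165 to 0.159 over all alternatives). The granule proteins Scg5, Scg2, Scg3 and Chgb differed by 0.11, -0.08, 0.04 and 0.19 and did not pass (adjusted p = 0.246, 0.508, 0.677 and 0.0571). The convertase gene Pcsk1 was not detected on any array.

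Of 6 tested genes for transmitters that GHRH neurons also use, 1 fell, Gal, beside 8.08% of all tested probes. Gal, which encodes galanin, had 10.54, 10.12, 10.56, 10.47, 10.56, 10.23, 10.33 and 10.44 in LUN 1 to LUN 8, and 11.06, 11.20, 11.13, 10.34, 10.97, 10.81, 11.09 and 10.34 in CON 1 to CON 8. All CON arrays other than CON 4 and CON 8 lay above every LUN array. The difference was -0.46 (standard error 0.12, adjusted p = 0.0176 from limma). Nts, which encodes neurotensin, differed by -0.33 (adjusted p = 0.096), Slc32a1, the vesicular GABA transporter, by -0.18 (0.0843), Gad1, which makes GABA, by -0.11 (0.211) and Th, the enzyme that limits dopamine synthesis, by -0.01 (0.972). Galanin is made by many hypothalamic neurons besides those with GHRH. Of the transcription factors, Dlx1 of GHRH neurons differed by -0.03, and Arnt2 and Pou3f2, which act in the development of neuroendocrine neurons, by -0.02 and 0.00 (adjusted p = 0.87, 0.895 and 0.99). Hmx2, Hmx3, Otp and Sim1 were detected on no array.

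**Figure D3:**
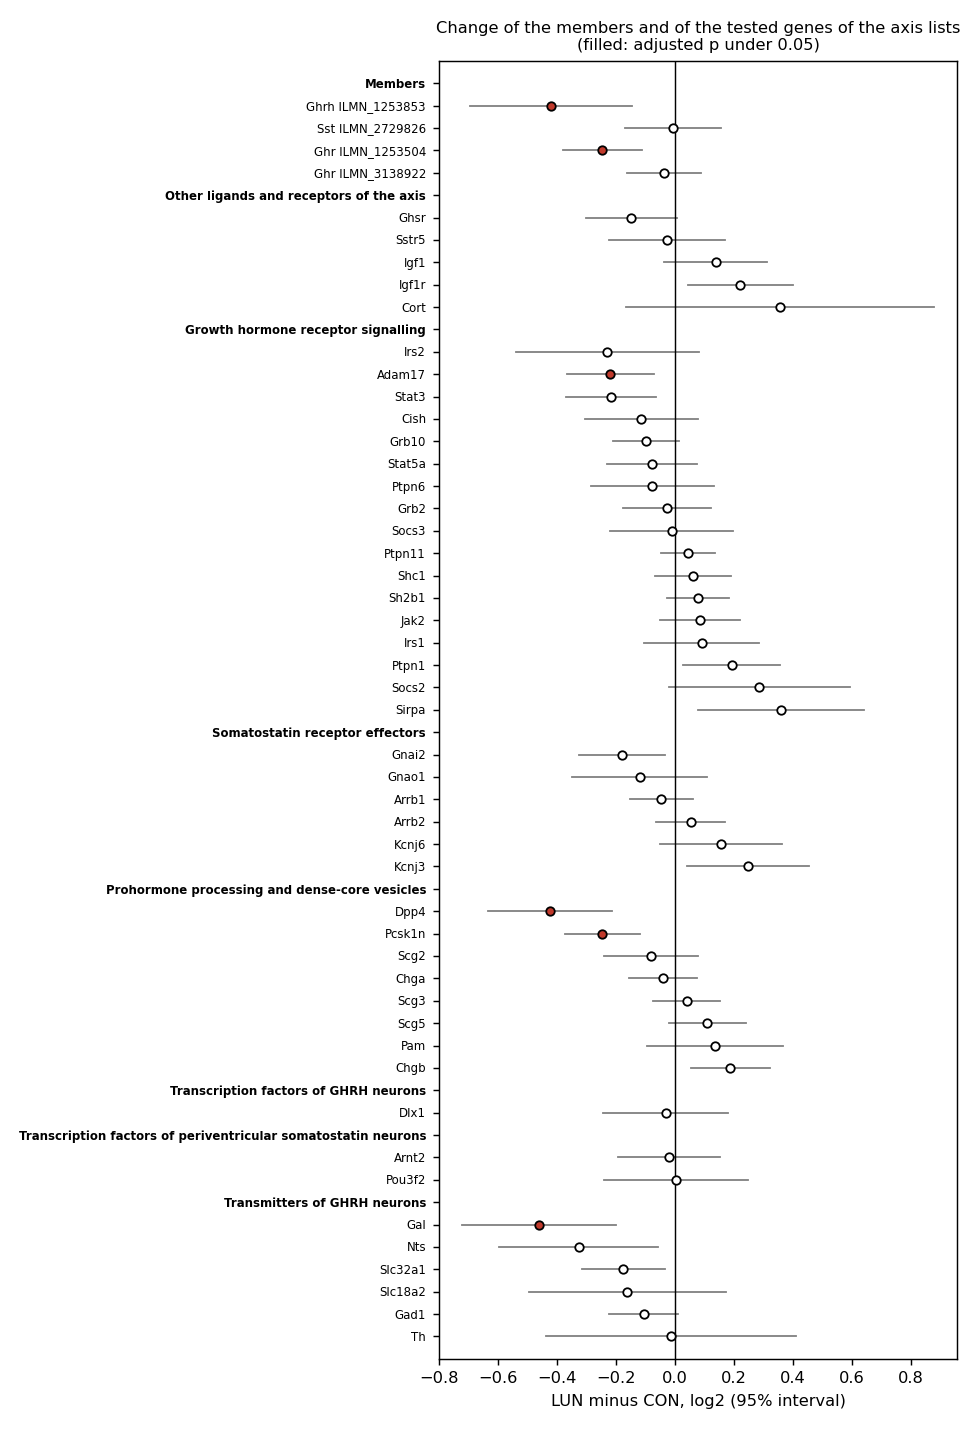
Difference LUN minus CON on the log2 scale, with its 95% interval, for the 4 tested member probes and the 45 tested genes of the 7 lists; filled points have an adjusted p under 0.05. Filled points are Ghrh, the brighter Ghr probe, Adam17, Dpp4, Pcsk1n and Gal, all left of 0.

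Markers of hypothalamic nuclei moved unevenly beside Ghrh, with 8.08% of all tested probes lower in LUN. Among the tested arcuate markers, Cartpt fell by 0.78, whereas Npy (0.12), Tac2 (-0.16) and Tbx3 (-0.02) did not pass (adjusted p = 0.525, 0.395 and 0.949 from limma). Pomc was detected on 0 LUN and 8 CON arrays and so was tested only through the group where it was high, and nothing is read from its difference. Kiss1, detected on 0 LUN and 6 CON arrays, and Nr5a2, on 5 LUN and 2 CON arrays, were not tested. Of 8 tested markers of other hypothalamic nuclei, 5 fell, Pmch, Hcrt, Avp, Oxt and Trh, and Crh, Nkx2-1 and Hdc did not pass. All 5 tested red cell genes, which include Hba-a1, Slc4a1 and Alas2, fell, with a score of -0.98 to 0.21 in LUN and -0.11 to 0.97 in CON. The arcuate score was -0.26 to -0.10 in LUN and -0.15 to 0.34 in CON, with CON 4 at 0.00 and CON 8 at -0.15 and the other CON arrays from 0.13. Without Pomc, a choice made after seeing the data, it was -0.23 to 0.00 in LUN and -0.16 to 0.24 in CON, with CON 4 at -0.06 and CON 8 at -0.16. CON 4 and CON 8, the CON arrays with the lowest Ghrh, thus also had the highest thalamic scores and the lowest arcuate scores of CON. The part of tissue composition and of blood in the lower Ghrh of LUN was not tested.

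**Figure D4:**
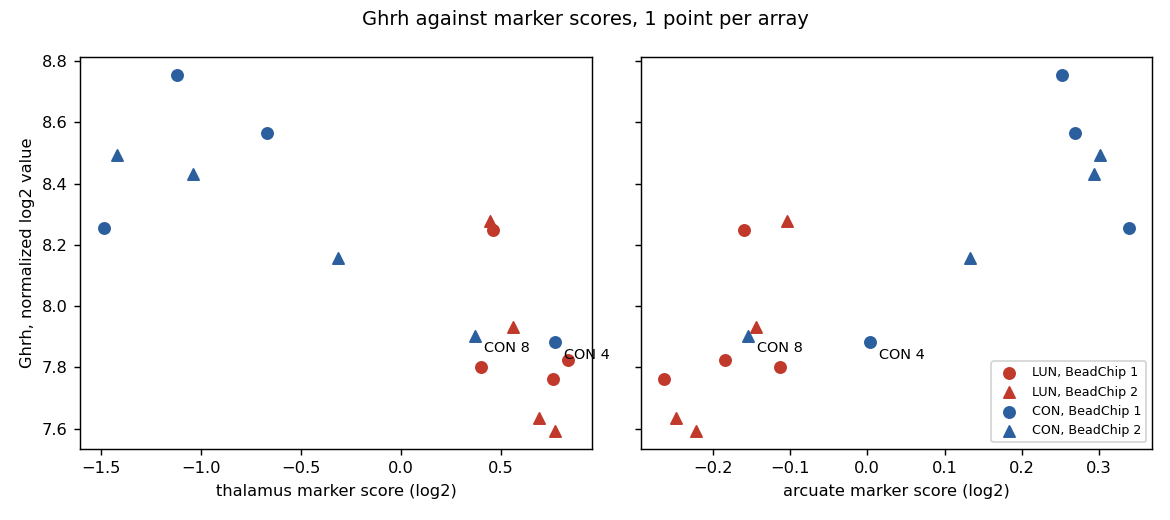
Normalized log2 value of Ghrh against the thalamic score (left) and the arcuate score (right), 1 point per array, with LUN in red, CON in blue, circles for BeadChip 1 and triangles for BeadChip 2. CON 4 and CON 8, with Ghrh at 7.88 and 7.90, lie beside the LUN arrays in the left panel, away from the other 6 CON arrays.

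Within groups, 10 relations of Ghrh and Sst with each other and with marker scores were computed, and none passed after Benjamini-Hochberg adjustment. In LUN, Ghrh and the thalamic score had r = -0.66 (permutation p = 0.082, adjusted 0.137) and rho = -0.52 (permutation p = 0.197, adjusted 0.27), with r = -0.47 on BeadChip 1 and -0.98 on BeadChip 2, and -0.95 without LUN 1 and LUN 4. Ghrh and the arcuate score in LUN had r = 0.68 (permutation p = 0.0696, adjusted 0.137) and rho = 0.74 (permutation p = 0.0458, adjusted 0.264), with 0.29 and 0.96 on BeadChips 1 and 2 and 0.62 without LUN 2 and LUN 7. In CON, Ghrh and the thalamic score had r = -0.79 (permutation p = 0.0227, adjusted 0.068) and rho = -0.64 (permutation p = 0.0962, adjusted 0.264). Ghrh and the arcuate score in CON had r = 0.79 (permutation p = 0.0172, adjusted 0.068) and rho = 0.52 (permutation p = 0.197, adjusted 0.27). CON 4 and CON 8 lay apart on the thalamic score, and among the other 6 the r of Ghrh was -0.25 with the thalamic and 0.29 with the arcuate score. The arcuate score used for these relations holds Pomc, which was detected on 0 LUN arrays. With Pomc left out of this score, the r of Ghrh was 0.55 in LUN and 0.68 among these 6 CON arrays, given without a test. Ghrh and Sst had r = 0.57 in LUN (permutation p = 0.142, adjusted 0.203) and rho = 0.50 (permutation p = 0.216, adjusted 0.27), and r = 0.11 without LUN 6 and LUN 7. In CON they had r = 0.70 (permutation p = 0.0241, adjusted 0.068) and rho = 0.64 (permutation p = 0.0962, adjusted 0.264), which rested on 2 arrays, since r was 0.25 without CON 3 and CON 4. On BeadChips 1 and 2 the r of Ghrh and Sst was -0.17 and 0.94 in LUN and 0.92 and 0.31 in CON. Each BeadChip held 4 arrays of a group, too few to test. The relations of Sst with the thalamic and the forebrain interneuron score had adjusted permutation p of 0.22 and 0.398 in LUN and 0.068 and 0.281 in CON.

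Pituitary hormones were found on a few arrays. Gh, the product of the axis, was detected on 1 LUN and 4 CON arrays, with values of 4.33 to 5.31 in LUN and 4.41 to 10.48 in CON (two-sided exact permutation test, p = 0.102). Prl, prolactin, was detected on 0 LUN and 3 CON arrays, CON 1, CON 5 and CON 7, which were also the CON arrays with the highest Gh. Without CON 1, CON 5 or CON 7, each left out in turn, the Ghrh difference was -0.43, -0.40 and -0.39. It did not pass in any of these cases (adjusted p = 0.0501, 0.0654 and 0.0696 from limma). Each time the remaining arrays with Prl stayed in CON, so a part of pituitary tissue in the Ghrh difference was not tested. Of the pituitary list, Cga was tested and did not pass (-0.82, adjusted p = 0.0514 from limma), and Pomc, also made in the arcuate nucleus, was tested only through its CON arrays.

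Across all 16 arrays, with the mean of each group removed, the genes whose pattern was most like that of Ghrh among 10243 others were C2cd4c (Pearson r = 0.93), Trh (0.92) and Nrsn2 (0.92). Trh encodes thyrotropin releasing hormone and itself differed by -0.61 (adjusted p = 0.00842 from limma). Least alike were Nmbr, a receptor of neuromedin B (-0.87), Ptn, which encodes the growth factor pleiotrophin (-0.86), and Ddah1 (-0.84). For Sst the most alike were Ednrb, an endothelin receptor (0.91), Bscl2 (0.87) and Tm9sf4 (0.87), and the least alike Irx2 (-0.89), Myadm (-0.88) and Irx5 (-0.86). Irx2 and Irx5 are homeobox factors. Without CON 4 and CON 8 the values for Sst were 0.78, 0.67 and 0.77 for Ednrb, Bscl2 and Tm9sf4, and -0.84, -0.68 and -0.69 for Irx2, Myadm and Irx5. For the brighter Ghr probe the most alike were Sil1 (0.93), Hdac11 (0.84) and Zfp37 (0.83), and the least alike Znrf1 (-0.83), Mbd4 (-0.81) and Kcna4 (-0.80). For the dimmer Ghr probe they were Il20ra (0.79), Nid2 (0.76) and Lrch4 (0.75), and Fkbp1b (-0.83), Dusp7 (-0.79) and C2cd2 (-0.77). These values describe likeness over arrays that share tissue, BeadChip and normalization, and carry no p.

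**Figure D5:**
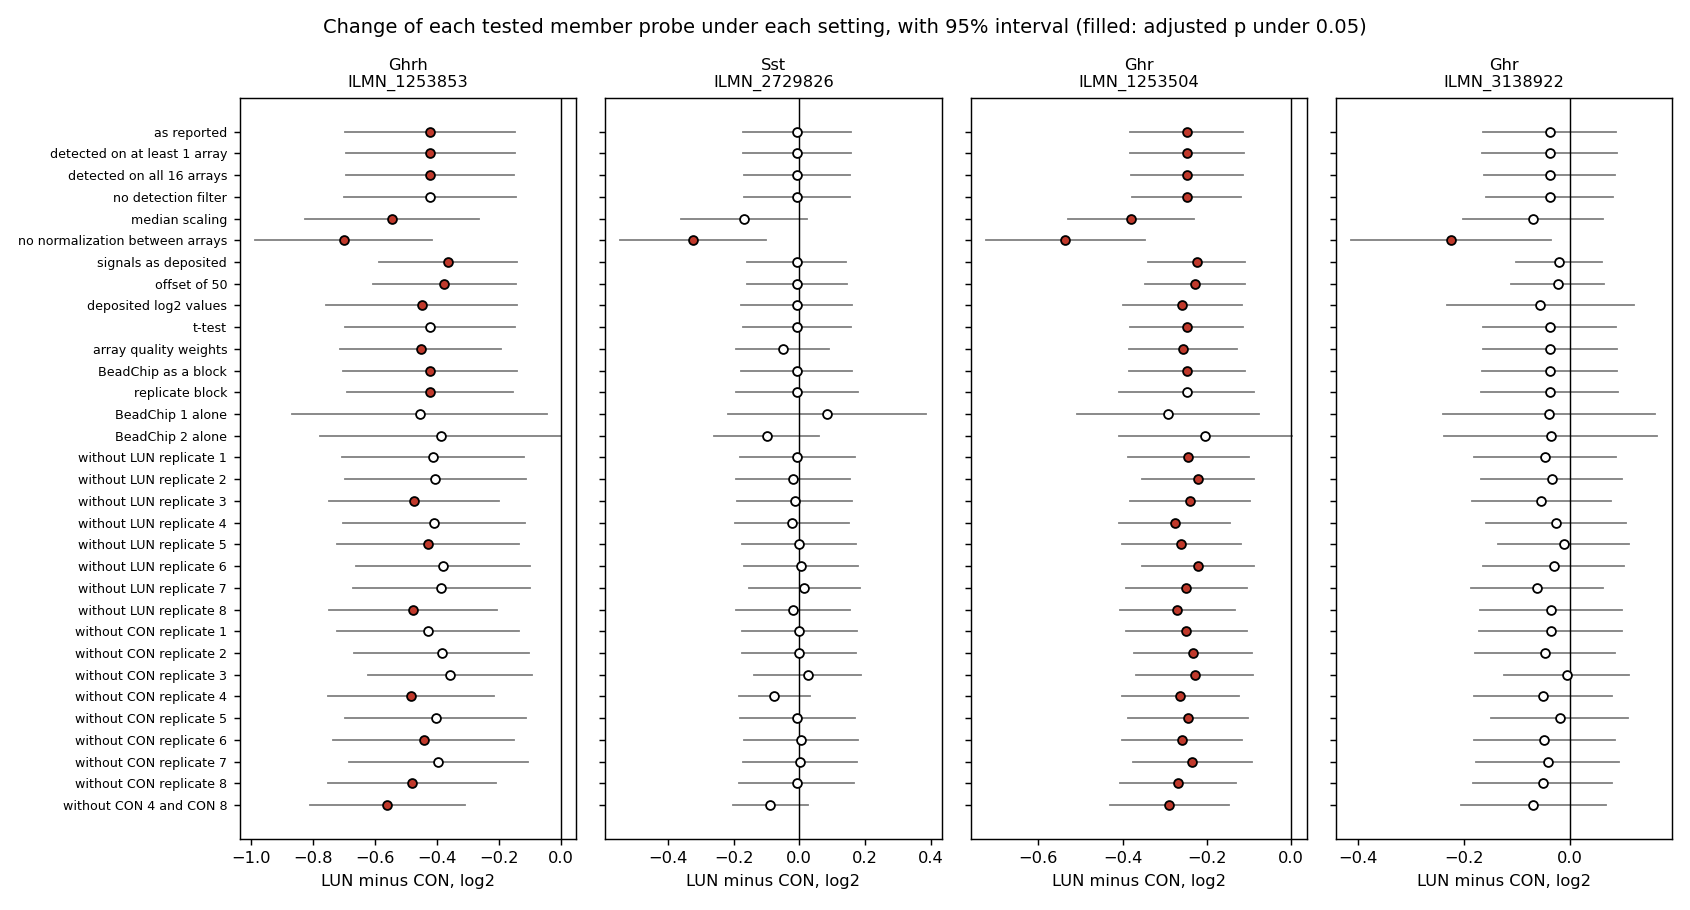
Difference LUN minus CON on the log2 scale, with its 95% interval, for each tested member probe under every setting of processing and with arrays left out; filled points have an adjusted p under 0.05. The points for Ghrh lie between -0.70 and -0.36 and those of the brighter Ghr probe between -0.54 and -0.20, and the points for Sst lie between -0.32 and 0.085.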

How the data were processed

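Each mouse's RNA was run on 1 MouseRef-8 v2 BeadChip array. The authors deposited the mean bead signal of every probe as an intensity, not normalized between arrays, along with GenomeStudio's detection p-value. The log2 values deposited by the authors had been quantile-normalized and median-centred per probe, and served as an alternative. Starting from the intensities, limma 3.58.1 in R 4.3.3 was used for normexp background correction (background inferred through the detection p-values, offset 16), quantile normalization and log2 transformation. Testing was limited to probes with detection under 0.05 on 8 or more arrays. The lmFit and eBayes functions compared LUN with CON, group being the sole term, and Benjamini-Hochberg adjustment covered the 14870 tested probes. Rose, fell and passed refer to an adjusted p under 0.05. The script was tested on simulated data. Of 25697 probes, 23978 carried a gene symbol, brought up to date through Entrez IDs.

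Single values were also compared by an exact permutation test over all 12870 splits of 16 arrays into 8 and 8, and correlations within a group used all 40320 pairings. For list genes with several tested probes, the brightest was taken. All members were named, every list gene that passed, at most 4 others per list with the highest mean, and the 3 genes most and least like each tested member; Sstr5, Gh, Prl, the marker genes and genes named as not detected were added after their values had been seen. The members and lists were chosen with earlier results of these data known. Alternatives were other detection filters, scalings and offsets, a t-test, the log2 values as deposited, array weights, BeadChip or replicate number as a block, each BeadChip alone and arrays left out; the contrasts within an array, the use of medians and the arcuate score without Pomc were added after seeing the data. According to the methods, F1 data came from 8 LUN and 4 CON litters. If this covers the arrays, the 8 CON mice include litter mates. No source used here ties a mouse to its litter, so the tests treat mice as independent, and their p-values may be too small, also for Ghrh, which lay close to the threshold. The number of arrays limits the precision. Figures were drawn with matplotlib 3.10.9.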

Additional observations from a re-analysis of the deposited data

Results flagged for a closer look

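In 28 groups of 8 values, 1 extreme array was looked for with Dixon's ratio, which chance exceeds in about 1 in 20 groups, and 4 were found. Sst in CON 4 was 11.74, where the nearest CON array had 12.21. Sstr1 in LUN 3 was 4.84, where the nearest LUN array had 4.51, and Sstr4 in LUN 4 was 4.52, where the nearest had 4.37, both not detected. Gh in LUN 5 was 5.31, detected, where the nearest LUN array had 4.68.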

How the results depend on the processing

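Ghrh passed in 18 of 32 alternatives with a p (adjusted p 0.000445 to 0.255, difference -0.70 to -0.36). Its difference of -0.42 did not pass with no detection filter (0.0601) or a t-test (0.0647), and -0.46 on BeadChip 1 alone (0.255) and -0.39 on BeadChip 2 alone (0.25) did not pass. The brighter Ghr probe passed in 29 of 32 (adjusted p 0.000132 to 0.251), and lost the call on BeadChip 1 alone (-0.29, 0.18), BeadChip 2 alone (-0.20, 0.251) and with a replicate block (-0.25, 0.0512). Replicate numbers did not pair the arrays (r of same-numbered arrays -0.29 to 0.10, and 0 of 8 arrays most like its own number); with the replicate block Ghrh had an adjusted p of 0.0474 and 1711 probes passed. Sst was 0.085 on BeadChip 1 alone and -0.076 to 0.025 with 1 array left out, and Ghrh -0.48 to -0.36. With no normalization between arrays, where the median of all probes moved to -0.25, Sst had -0.32 (adjusted p 0.014) and the dimmer Ghr probe -0.22 (0.0403), and Ghrh, the brighter Ghr probe, Adam17, Pcsk1n, Dpp4 and Gal had -0.70, -0.54, -0.50, -0.54, -0.58 and -0.75.

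Of all probes, 2231 passed, against 4457 with median scaling (561 higher, 3896 lower), 8574 with no normalization (178 higher, 8396 lower), 8 on BeadChip 1 alone and 195 on BeadChip 2 alone. Of the genes of the axis lists, 4 passed, against 13, 27, 0 and 0 under these settings, 9 with array weights, 8 without CON 4 and CON 8, and 3 to 6 with 1 array left out. The cause was not tested, except that each BeadChip alone has fewer arrays. Sstr1 to Sstr4 lay at background, which limits any statement on them.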
